A study of Sus scrofa with 2 samples.

Results

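The axonemal and ciliary genes described here are 45 genes of 26881 features in the pig endometrium libraries, chosen by name: every symbol that begins with CFAP, DNAH, DNAI, DNAL, DYNLRB, RSPH, TEKT, IFT and a digit, SPAG, DRC, ROPN1 or MORN, together with SNTN and TPPP3. SNTN and TPPP3 lie outside these name families, and the choice was made with earlier results of these data known. They comprised 3 dynein chains (DNAH1, DYNLRB1, DYNLRB2), 4 radial spoke genes (RSPH4A, RSPH6A, RSPH9, RSPH14), 2 tektins (TEKT2, TEKT3), 15 CFAP genes, 7 intraflagellar transport genes (IFT20, IFT22, IFT27, IFT43, IFT74, IFT80, IFT122), 7 SPAG genes, 2 ropporins (ROPN1, ROPN1L), 3 MORN genes (MORN2, MORN3, MORN5), SNTN and TPPP3. No symbol among these features began with DNAI, DNAL or DRC, and 16128 features carried an identifier without a symbol, so other genes of these families may have been counted under such identifiers. The tissue came from the uterine horns of 2 Yorkshire sows aged 3 years. The sow of the embryo loss group (EL) had aborted earlier and then failed to conceive after 3 inseminations in a row, and her stage at sampling is not given. The sow of the implantation group (EIS) was sampled at day 30 after a successful insemination. With 1 animal and 1 library on each side, the sow, her status, her stage and the library prep cannot be told apart. No test across animals exists, and the intervals given here reflect counting error alone.

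A motile cilium is a bundle of microtubule doublets, the axoneme, that beats because dynein arms on one doublet walk along the next. Radial spokes and a central apparatus time the beat, tektins run inside the doublet wall, and intraflagellar transport carries building blocks from the cell body to the tip and back. In the uterus such cilia are carried by the ciliated cells of the luminal and glandular epithelium. Many of the same transport genes also serve the single primary cilium, which most other cell types can build.

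The libraries held 43302286 UMIs (unique molecular identifiers, each marking 1 captured transcript) in 10936 EL barcodes and 36069473 UMIs in 8848 EIS barcodes. After filtering, 9864 EL and 8068 EIS cells remained with median depths of 2315 and 2236 UMIs, and 25 barcode sequences occurred in both. The uterine epithelial genes KRT8 and FOXA2 and the receptors ESR1 and PGR were detected in both libraries. The EIS library also held cells with the trophoblast genes PAG6 and SMPDL3A, and its secretory gene SLPI alone took 153699 CPM (UMIs scaled to a library total of 1e6) against 294 CPM in EL.

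Ciliated cells were gated by 23 marker genes outside the 45, among them FOXJ1, the master regulator of motile cilia, and CCDC39, an axonemal ruler protein. A cell passed when these markers made up at least 0.1% of its UMIs with 3 or more marker UMIs over 2 or more genes, and when it passed no trophoblast, immune, stromal or endothelial list. This gave 2483 cells in EL, 25.2% of those kept, with a Clopper-Pearson 95% interval of 24.3 to 26.0. In EIS it gave 326 cells, 4.04% of those kept (3.62 to 4.49). The gate did not hold the same cells in both libraries. In EL, 1228 of the gated cells lay in a cluster that both libraries supplied, led by LRRC71 and TMEM212, and 1021 lay in a shallow cluster that was almost wholly EL. In EIS these numbers were 249 and 3. Counting only the cluster supplied by both libraries, the shares were 12.5% in EL and 3.14% in EIS. Near the threshold, 129 EL and 21 EIS gated cells had markers under 0.15% of UMIs, and 1075 EL and 1001 EIS cells lay just below it, at 0.05% or more. A further 427 EIS and 18 EL cells passed the ciliated gate together with another gate and were left out of the gated classes. Dissociation and filtering can set which cell types are recovered, so these shares describe the suspensions.

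Within ciliated cells the 45 genes were expressed at nearly the same summed level in both sows, and few single genes differed by much. Summed over the 45, EL reached 14588 CPM (exact Poisson 95% interval 14510 to 14667) and EIS 13481 CPM (13324 to 13640). Without TPPP3 the sums were 12698 and 12487 CPM. At least 20 UMIs over both libraries were counted for 41 of the 45 genes. None of the 41 was 2-fold or more higher in EL, where 8.16% of all 12769 features with as many UMIs were. One, RSPH6A, was 2-fold or more higher in EIS, where 5.22% of features were. At a fold of 1.5 there was 1 gene higher in EL (background 16.7%) and there were 2 higher in EIS (background 11.3%). The median log2 ratio of EL over EIS was 0.07 over the 41 genes and 0.09 over all those features, with 23 genes above a ratio of 1 and 18 below it. Abundant features in general differed little between these cells: of 2221 features with 1000 UMIs or more, 4.82% differed 2-fold or more in either direction, against 0 of the 33 axonemal and ciliary genes with as many UMIs. In the 41 genes, the counting interval of the ratio lay above 1 for 13 (21.8% of all features), below 1 for 7 (13.2% of all features) and held 1 for 21. Abundant features have narrow intervals: of the 33 genes with 1000 UMIs or more, 12 lay above 1 and 6 below, where 43.3% and 19.3% of features with as many UMIs did.

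**Figure D1:**
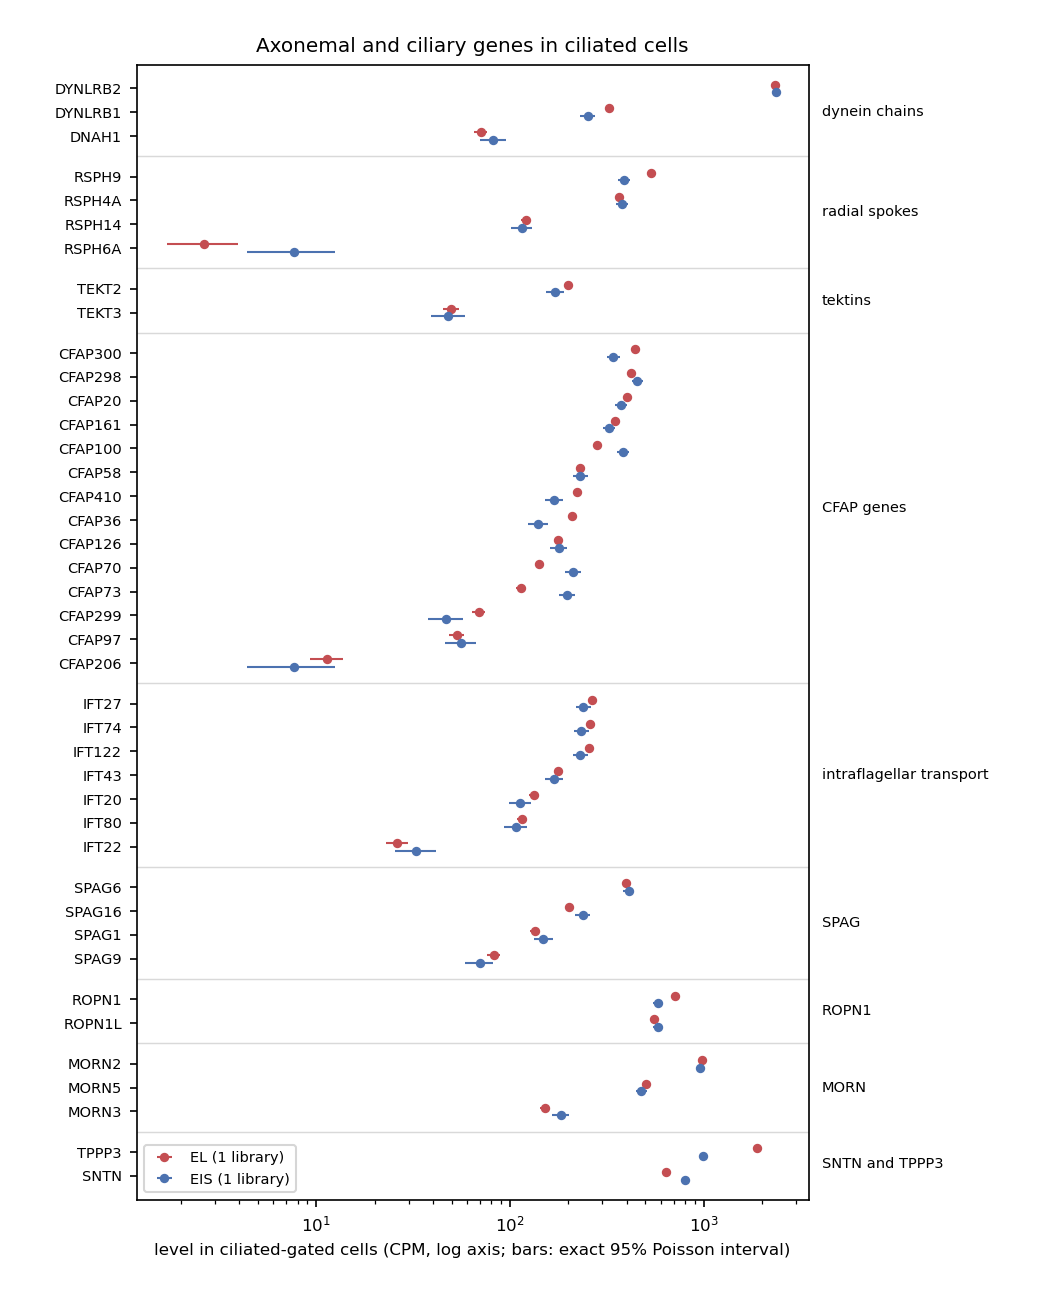
Level of each of the 41 genes with at least 20 UMIs in ciliated-gated cells, in CPM on a log axis, grouped by role; each point is 1 library and each bar an exact 95% Poisson interval. EL and EIS points lie close together across a range from 2.65 CPM (RSPH6A in EL) to 2352 CPM (DYNLRB2 in EIS), and TPPP3, CFAP73 and RSPH6A show the widest gaps.

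Among the dynein chains, DYNLRB2 was the gene with the most UMIs of all 45 and had the same level in both sows. DYNLRB2 and DYNLRB1 are roadblock light chains, small subunits that help dynein motors hold their cargo, and DYNLRB2 is the form known from ciliated tissue. DYNLRB2 stood at 2333 CPM in EL (2302 to 2364) and 2352 CPM in EIS (2286 to 2419), a ratio of 0.992 (exact conditional 95% interval 0.962 to 1.02). DYNLRB1 stood at 324 CPM in EL, against 252 in EIS, a ratio of 1.29 (1.17 to 1.42). DNAH1, the heavy chain of an inner dynein arm and the motor itself, was counted at 70.6 CPM in EL, against 81.8 in EIS, a ratio of 0.864 whose interval of 0.728 to 1.03 held 1. Levels of different genes are not compared here beyond their UMIs, because the 3' counts carry no correction for length or capture.

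The radial spoke genes gave one gene higher in EL, 2 with no difference beyond counting error and one rare gene higher in EIS. RSPH9 and RSPH4A build the spoke head that touches the central apparatus. RSPH9 was at 532 CPM in EL, against 389 in EIS, a ratio of 1.37 (1.27 to 1.48). RSPH4A was at 365 and 379 CPM, a ratio of 0.963 (0.890 to 1.04). RSPH14 was at 121 and 115 CPM, a ratio of 1.05 (0.914 to 1.22). RSPH6A, a close relative of RSPH4A best known from sperm, was counted 24 times in EL and 16 times in EIS, which gave 2.65 and 7.70 CPM and a level 2.91-fold higher in EIS (1.44 to 5.71). The 2 tektins, TEKT2 at 200 and 171 CPM and TEKT3 at 49.7 and 48.1 CPM, had ratios of 1.17 (1.04 to 1.31) and 1.03 (0.830 to 1.30).

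The CFAP genes (cilia and flagella associated proteins) moved in both directions around a median log2 ratio of 0.04, with 7 above a ratio of 1 and 7 below among the 14 that passed the count minimum. The lowest ratio was that of CFAP73. CFAP73 was at 114 CPM in EL, against 198 in EIS, a ratio of 0.577 (0.515 to 0.649), and CFAP100, its partner in the modifier-of-inner-arms complex, was at 283 and 382 CPM, a ratio of 0.739 (0.682 to 0.801). CFAP70, an outer arm associated protein, was at 142 and 212 CPM, a ratio of 0.671 (0.601 to 0.749). On the other side, CFAP36, which binds the small GTPase ARL3, was at 208 CPM in EL, against 140 in EIS, a ratio of 1.49 (1.31 to 1.69). CFAP299 had a ratio of 1.47 (1.19 to 1.84) at 68.8 and 46.7 CPM, and CFAP410, a partner of the kinase NEK1, one of 1.32 (1.18 to 1.48) at 222 and 168 CPM. CFAP300, which takes part in assembling dynein arms, was at 442 and 342 CPM with a ratio of 1.29 (1.19 to 1.40). CFAP298, with a like role, was at 424 and 455 CPM with a ratio of 0.931 (0.867 to 1.00). CFAP20, at the inner junction of the doublet, CFAP161, a protein inside the doublet, and CFAP58 had ratios of 1.07, 1.08 and 0.991 with intervals that held 1. CFAP206, a radial spoke base protein, reached a ratio of 1.47 on 103 EL and 16 EIS UMIs, and its interval of 0.866 to 2.68 held 1. CFAP97D1 had 7 and 6 UMIs and did not reach the count minimum.

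Of the 7 intraflagellar transport genes, 6 had a ratio above 1, as had 7418 of all 12769 features. The interval lay above 1 for 4 of the 7, beside 21.8% of all features and 43.3% of those with 1000 UMIs or more. All of the 7 but IFT22 had as many UMIs. The median log2 ratio was 0.14 and none was past a fold of 1.5. IFT122 and IFT43, of the complex that drives return transport, were at 255 against 231 CPM (ratio 1.10, 1.00 to 1.22) and 177 against 169 CPM (1.05, 0.933 to 1.18). Of the complex that drives outward transport, IFT27 had a ratio of 1.11 (1.01 to 1.22), IFT74 one of 1.11 (1.01 to 1.23), IFT20 one of 1.17 (1.02 to 1.35) and IFT80 one of 1.08 (0.933 to 1.25). IFT22 alone was lower in EL, at 26.1 against 32.7 CPM, with an interval of 0.607 to 1.06. When every cell was thinned to 1000 UMIs, IFT122 and IFT74 changed sign, to log2 ratios of -0.19 and -0.05.

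The SPAG genes share a name from sperm antigens and not a function. Of the 4 that passed the count minimum, 1 had a ratio above 1 and 3 had one below it. SPAG6 and SPAG16, both of the central apparatus, were at 398 against 410 CPM (ratio 0.971, 0.901 to 1.05) and 201 against 238 CPM (0.846, 0.766 to 0.937). SPAG1, needed to preassemble dynein arms, was at 135 against 149 CPM (0.906, 0.799 to 1.03). SPAG9, a scaffold for kinases and motors found in many cell types, was at 82.2 against 69.8 CPM (1.18, 0.985 to 1.42). SPAG4, a nuclear envelope protein of spermatids, had 2 UMIs in EL ciliated cells and 0 in EIS. SPAG5, of the mitotic spindle, and SPAG11, a defensin-like gene of the epididymis, had 0 UMIs in ciliated cells of either library, which allows up to 0.331 CPM for EL and 1.44 for EIS.

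Ropporins bind anchoring proteins of the radial spoke and the flagellum. ROPN1 was at 710 CPM in EL, against 581 in EIS (ratio 1.22, 1.15 to 1.30), while ROPN1L was at 551 and 583 CPM (0.946, 0.888 to 1.01). The MORN genes, named for a membrane-binding repeat, differed little: MORN2 was at 980 and 956 CPM (1.03, 0.976 to 1.08), MORN5 at 501 and 477 CPM (1.05, 0.980 to 1.13) and MORN3 at 151 and 183 CPM (0.827, 0.738 to 0.929).

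TPPP3 and SNTN, the 2 genes added to the name families, moved in opposite directions. TPPP3, a tubulin-binding protein that promotes microtubule bundling, had the largest excess in EL of the 41 genes, at 1891 CPM (1863 to 1919) against 994 CPM in EIS (952 to 1038), a ratio of 1.90 (1.82 to 1.99). SNTN encodes sentan, a protein of the ciliary tip, and was at 636 CPM in EL (620 to 653) against 801 CPM in EIS (763 to 841), a ratio of 0.794 (0.752 to 0.839). In the ciliated cluster that both libraries supplied, the TPPP3 ratio was 1.96 (1.87 to 2.05) at 2248 and 1148 CPM, and the SNTN ratio 0.848 (0.802 to 0.897) at 792 and 934 CPM. DYNLRB2, RSPH9, CFAP73 and CFAP100 there had ratios of 1.03, 1.38, 0.611 and 0.739. Secretory genes used as a measure of free RNA took 1164 CPM of the EL and 37128 CPM of the EIS ciliated cells, and stromal markers 47.7 and 288 CPM, with 8 and 10 of 12 markers detected and PDGFRA at 0 in both. The trophoblast list stood at 11.4 CPM in EL, where PAG6 was at 0, and at 200 CPM in EIS. The part of these in the ratios was not tested. Scaling without the genes over 1% of UMIs left all 41 ratios within their counting intervals.

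Cell by cell, nearly all ciliated cells held some of the genes, while single genes were seen in fewer. The median depths of gated cells were 2627 UMIs in EL and 6285 UMIs in EIS, so each cell was thinned to 1000 UMIs, which left 1978 EL and 322 EIS cells. At least 1 of the 45 genes was then seen in 98.4% of EL cells (97.8 to 98.9) and 97.5% of EIS cells (95.2 to 98.9), with a median of 9 and 10 genes per cell. In lymphocytes at the same depth this share was 56.5% (49.0 to 63.8) in EL and 41.9% (36.6 to 47.3) in EIS. DYNLRB2 was seen in 74.8% (72.8 to 76.7) and 79.5% (74.7 to 83.8) of cells, against 2.17% and 1.16% of lymphocyte-gated cells at the same depth. TPPP3 was seen in 71.3% (69.2 to 73.3) of EL and 53.1% (47.5 to 58.7) of EIS cells, against 4.35% and 1.45% of lymphocytes. SNTN was seen in 35.7% (33.6 to 37.8) and 44.4% (38.9 to 50.02), against 0.543% of EL lymphocytes and 0 of 344 in EIS, whose upper limit is 1.07%. DNAH1 was seen in 6.42% and 9.63% of cells, so at this depth most cells gave no UMI of it.

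The genes fell into those carried almost wholly by ciliated cells and those that other epithelial cells shared. In EL, 24 of 41 genes were at least 10-fold higher in ciliated than in other epithelial cells (epithelial markers present, all other gates failed), where 5.92% of features were, and in EIS 28 of 39, where 6.33% were. The median ratio was 32.8 in EL and 40.1 in EIS. DYNLRB2 and DYNLRB1 gave the clearest contrast within a pair: DYNLRB2 was 35.9-fold higher in EL (33.7 to 38.3) and 55.1-fold higher in EIS (44.4 to 69.1), while DYNLRB1 was 2.06-fold (1.95 to 2.17) and 2.45-fold (2.08 to 2.90) higher. SNTN was 70.2-fold and 84.0-fold higher, TPPP3 50.4-fold and 53.5-fold, and ROPN1 52.1-fold and 105-fold. CFAP73 was 54.7-fold higher in EL and 394-fold in EIS, the latter against 1 UMI and with a lower limit of 70.2.

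At the other end, SPAG9 was 1.23-fold higher in EL ciliated cells (1.12 to 1.35) and 1.32-fold in EIS (1.02 to 1.72), and CFAP97, a gene of wide expression, 1.48-fold and 2.22-fold. CFAP36 and IFT20, which also works at the Golgi, were 2.19-fold and 2.81-fold higher in EL and 5.36-fold and 2.78-fold in EIS. All 7 intraflagellar transport genes lay below 10-fold in EL, from IFT20 at 2.81-fold (2.56 to 3.09) to IFT74 at 8.05-fold (7.30 to 8.89). All 4 radial spoke genes but RSPH6A, with 24 UMIs, and both tektins lay above 30-fold there.

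**Figure D2:**
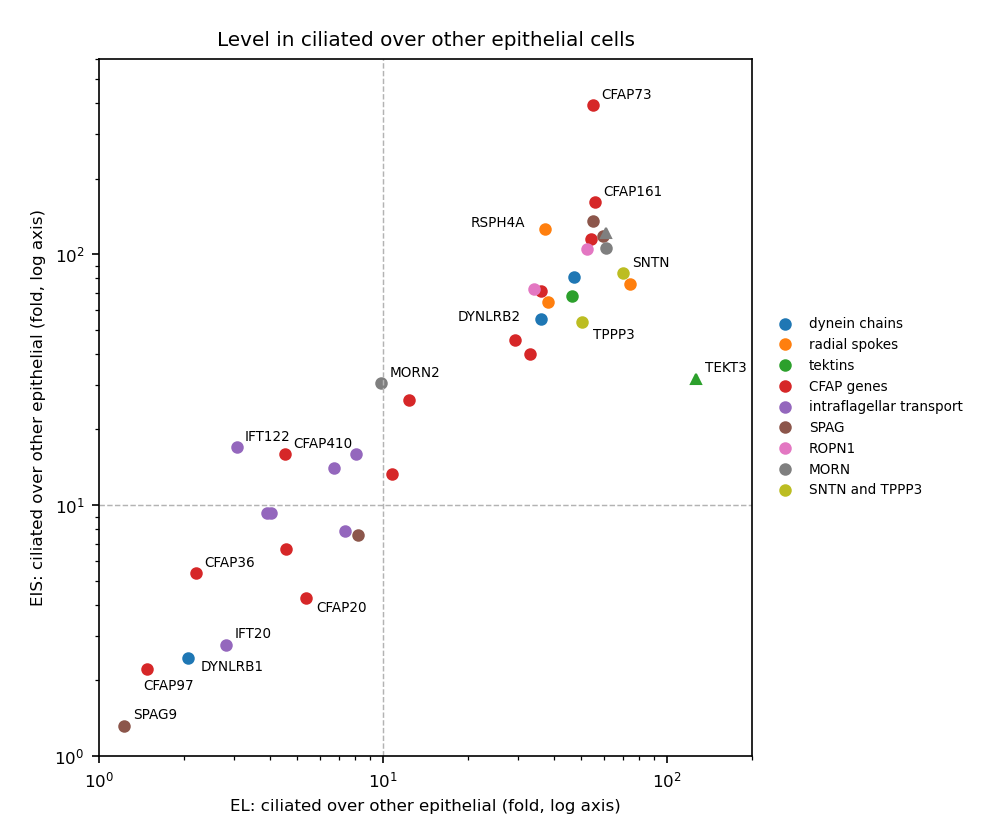
Ratio of the level in ciliated-gated over other epithelial-gated cells in EL (x axis, fold, log) and EIS (y axis, fold, log) for the 39 genes with at least 20 UMIs in both libraries; colours mark roles, triangles are lower bounds where EIS epithelium had 0 UMIs, and dashed lines mark 10-fold. SPAG9 lies lowest in both libraries. The intraflagellar transport genes lie below the EL line, with IFT122, IFT74 and IFT27 above the EIS line. DYNLRB2, SNTN and TPPP3 lie far above both lines.

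In the shallow EL cluster the genes of ciliated cells were present at a lower level. It held 2569 EL cells with a median depth of 887 UMIs, and its leading genes included DLX6 beside the ciliary genes ZMYND10 and ODF3B. The 45 genes summed to 5898 CPM there against 17280 CPM in the 1232 EL cells of the ciliated cluster. The 22 genes that were over 20-fold higher in EL ciliated cells, and had 50 or more UMIs in the ciliated cluster, stood at a median of 30.6% of their level in the ciliated cluster, between 20.0% and 43.3%. DYNLRB2 stood at 30.6% (29.3 to 31.8) and TPPP3 at 31.4% (30.1 to 32.9), while SNTN at 20.3% (18.5 to 22.2) and SPAG16 at 20.0% (16.8 to 23.5) lay lowest. The other 18 genes with as many UMIs stood at a median of 43.1%, and their range overlapped that of the 22, from 26.4% for SPAG1 to 87.5% (79.5 to 96.3) for CFAP36. The 22 were chosen by their ratio in these same EL cells, and 20.5% of the other epithelial class lay in the shallow cluster. That choice itself favours a lower percentage, so no conclusion is drawn from the gap between the medians. The cluster was found without the 45 genes, but it lies in the deposited cells of 1 sow, and its depth was under that of the ciliated cluster, at 5529 UMIs. The part of depth in these levels was not tested.

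Outside ciliated cells the picture between sows was different: other epithelial cells of EL held more of most of these genes. Of 38 genes with at least 20 UMIs, 34 had a ratio above 1, beside 8376 of all 13250 features. The sum over the 45 genes was 1213 CPM in EL (1196 to 1231) and 690 CPM in EIS (654 to 727). Of the 38, 17 were 2-fold or more higher in EL, against a background of 22.1% of features, and 0 were higher in EIS, against 13.6%. The median log2 ratio was 0.88 over the 37 genes detected in both libraries and 0.27 over all features. With MORN3, at 0 in EIS, set at its bound, the medians with all such features at their bounds were 0.87 and 0.28. With TMM scaling, which lowers every log2 ratio in this class by 0.12, 13 of the 38 were 2-fold or more higher in EL. The background of 22.1% is for unscaled ratios and would fall under this scaling too.

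The largest ratio belonged to IFT122, at 83.5 CPM in EL, against 13.6 in EIS, or 6.16-fold (4.21 to 9.38), on 1281 and 27 UMIs. IFT122 reached 198 CPM in the EL epithelial cluster led by CCK and 124 CPM in the one led by JAKMIP1, beside 290 CPM in the EL ciliated cluster, and stood at 2.59 CPM in the SLPI-led secretory cluster of EIS. CFAP410 was at 49.0 against 10.5 CPM, or 4.64-fold (3.01 to 7.54), and CFAP36 at 94.9 against 26.1 CPM, or 3.63-fold (2.76 to 4.89). MORN2 was at 99.6 against 31.1 CPM, or 3.20-fold (2.48 to 4.19). CFAP20 was at 75.0 against 87.9 CPM with an interval of 0.727 to 1.01, and DYNLRB1 at 158 against 102 CPM, or 1.54-fold (1.33 to 1.78).

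The epithelial class was not made of the same cells in both sows. In EL, 27.5% of it came from the cluster led by JAKMIP1 and 20.5% from the shallow cluster, and in EIS 34.8% came from a cluster of median depth 752 UMIs led by DCLK2, while the SLPI-led cluster gave 8.41%. Secretory genes took 95195 CPM of the EIS class and 41.7 CPM of the EL class. The ciliated marker list summed to 217 CPM for EL and 138 CPM for EIS, with 21 of 23 detected in each. The genes over 20-fold higher in EL ciliated cells were spread over a wide range here. DYNLRB2 was at 65.0 against 42.7 CPM (1.52-fold, 1.22 to 1.92) and SNTN at 9.06 against 9.55 CPM (0.949, 0.586 to 1.62). TPPP3 had a ratio of 2.02 (1.45 to 2.90), RSPH4A one of 3.24 (1.46 to 8.98) and CFAP73 one of 4.15 on 1 EIS UMI (0.694 to 169). The part of cluster makeup and of ciliated RNA in the other ratios was not tested.

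**Figure D3:**
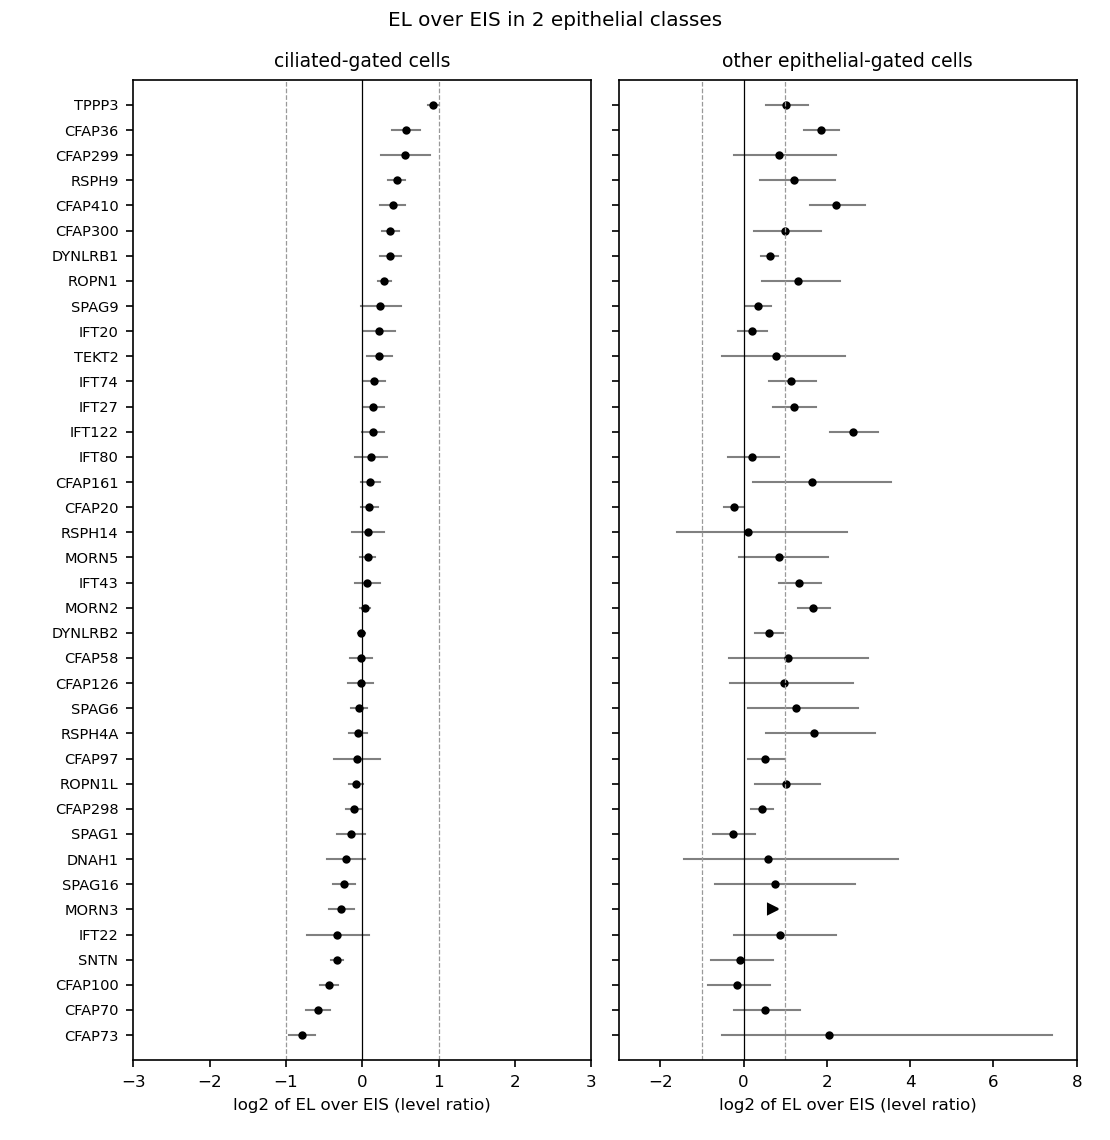
Log2 of EL over EIS for the 38 genes with at least 20 UMIs in both classes, in ciliated-gated cells (left) and other epithelial-gated cells (right), ordered by the left panel; points are ratios of 2 libraries, grey bars exact 95% intervals, the triangle (MORN3) a lower bound, and dashed lines mark 2-fold; the x axes of the panels differ in range. In ciliated cells all 38 points lie within the 2-fold lines, and in other epithelium IFT122, CFAP410, CFAP73 and CFAP36 lie farthest to the right.

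TPPP3 UMIs were also counted in EL stromal-gated cells, at a higher level than in EIS. In the 55 stromal-gated EL cells it stood at 545 CPM on 61 UMIs, against 40.4 CPM on 242 UMIs in 1874 EIS stromal cells, 13.5-fold higher (10.0 to 18.0), or 8.07-fold with TMM scaling. Most EL stromal cells (78.2%) lay in a cluster led by APOD and CYP1B1, which held 3.52% of the EIS class, so the comparison was also made inside that cluster. There 52 EL cells held 81 TPPP3 UMIs and 68 EIS cells 12, at median depths of 872 and 863 UMIs. Of the 52 EL cells 43 were stromal-gated, and 9 had been set aside by the gates because they passed several lists. Of the 20 EL cells set aside in this way, 18 passed the ciliated gate. In EIS 66 of the 68 cells were stromal-gated. The part of the cells set aside in the cluster ratios was not tested. TPPP3 was seen in 29 of the EL cells, or 55.8% (41.3 to 69.5), and in 9 of the EIS cells, or 13.2% (6.23 to 23.6), a level of 857 against 44.4 CPM. The summed depth was larger in EIS despite the similar medians: 7 RSPH9 UMIs made 74.1 CPM in EL and 25.9 CPM in EIS. The gap in CPM is therefore wider than the gap in UMIs per cell, for TPPP3 and for the other genes of this cluster. DYNLRB2 in the same cluster was seen in 18 EL and 3 EIS cells, at a level 3.38-fold higher in EL (1.84 to 6.25). TPPP3 was thus not alone in being higher in EL there. ROPN1 was 20.0-fold higher (2.57 to 902) and CFAP100 11.4-fold (2.28 to 111), on 7 and 8 EL UMIs. SPAG1 and CFAP97 had ratios below 1 with intervals that held 1.

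Set against DYNLRB2, which ciliated cells carry, TPPP3 was highest in EL stromal cells and EIS endothelial cells, but not in EIS stromal cells. There were 81.1 TPPP3 UMIs per 100 DYNLRB2 UMIs in EL ciliated cells (79.4 to 82.7) and 57.8 in other EL epithelium (52.1 to 64.1), but 312 in the EL stromal cluster (198 to 505). In EIS the numbers were 42.3 in ciliated cells (40.1 to 44.5), 44.2 in stromal-gated cells (37.8 to 51.5) and 54.5 in the stromal cluster (24.6 to 115). The last number rests on 22 DYNLRB2 UMIs from 3 of 68 EIS cells. Its interval treats UMIs of the same cell as independent, so the contrast with the EL stromal cluster depends on those few cells. EIS endothelial cells, with 41 TPPP3 and 13 DYNLRB2 UMIs, had 315 (166 to 641). EL stromal-gated cells also held ciliated markers at 653 CPM, 15 of 23 detected with CCDC39 and CCDC78 at 0, and epithelial markers at 1457 CPM. Their part in the TPPP3 difference was not tested.

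**Figure D4:**
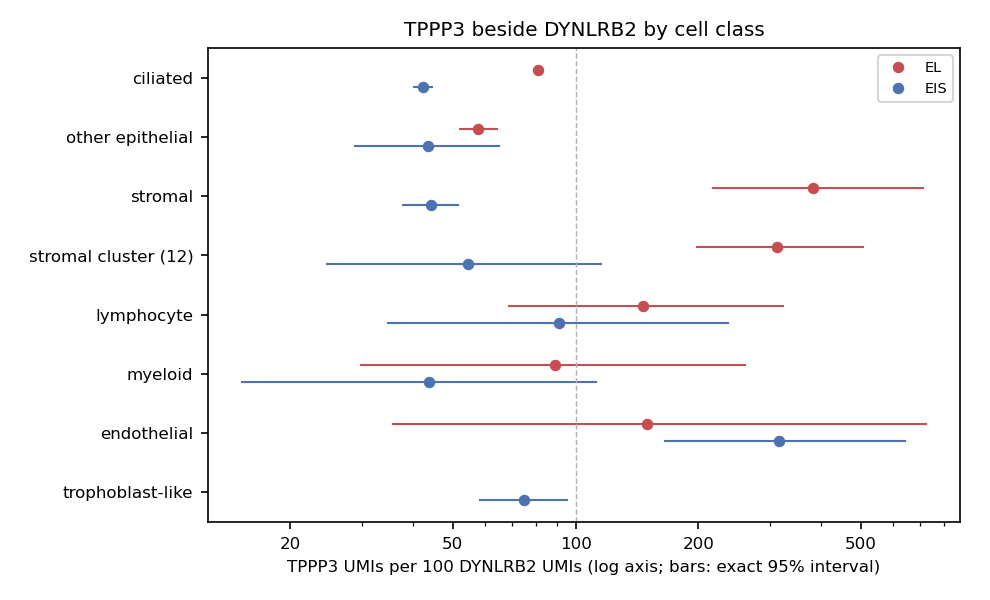
TPPP3 UMIs per 100 DYNLRB2 UMIs (x axis, log) in each gated class and in the stromal cluster of both libraries; points are 1 library each, bars exact 95% intervals, and the dashed line marks equal counts. Ciliated and other epithelial cells lie left of the line in both libraries, and EL stromal cells and EIS endothelial cells lie farthest to its right; EL lymphocytes and EL endothelial cells lie right of it with intervals that cross it.

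Over all genes the stromal comparison was less steady. Of 37 genes with at least 20 UMIs, 19 were 2-fold or more higher in EL stromal cells, where 27.0% of features were, and 1 (SPAG6, on 1 EL UMI) was higher in EIS, where 6.20% were. TMM scaling lowers every log2 ratio in this class by 0.74, and under it 4 were higher in EL. The share of 27.0% is for unscaled ratios, so this count has no background beside it. Besides TPPP3, RSPH9 at 71.5 against 14.2 CPM (5.05-fold, 2.11 to 10.4) and IFT122 at 80.5 against 16.2 CPM (4.97-fold, 2.21 to 9.84) had the largest ratios, on 8 and 9 EL UMIs.

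Few of the genes reached the count minimum in immune cells, but these classes also had few UMIs. Lymphocyte-gated cells held 305896 UMIs in EL and 672554 in EIS, against 9074341 and 2078867 in ciliated cells. The summed level of the genes was 863 CPM in EL and 535 CPM in EIS lymphocytes, and 846 and 548 CPM in myeloid cells. In other epithelial cells it was 1213 and 690 CPM. In lymphocyte-gated cells (227 EL, 360 EIS) 9 genes had at least 20 UMIs, and 3 of them, TPPP3, DYNLRB2 and CFAP97, were 2-fold or more higher in EL (background 5.39%), on at most 19 UMIs each in EL, and 0 were higher in EIS (background 4.46%). In myeloid cells (75 EL, 237 EIS) 2 of 10, CFAP97 and DYNLRB2, were so (background 7.46%), on 8 and 9 EL UMIs, and 0 were higher in EIS (background 9.63%). TMM scaling, which lowers every log2 ratio in myeloid cells by 0.23, left 1, CFAP97, higher in EL and 1, SPAG1, higher in EIS. The backgrounds given are for unscaled ratios. Of the 75 EL myeloid cells 13 lay in the shallow cluster, as did 8 of the 227 EL lymphocytes, and that cluster held 4 EIS cells in all. Its part in these ratios was not tested. SPAG9, CFAP20 and DYNLRB1 had the most UMIs in both classes. CFAP20 was at 167 CPM in EL, against 112 in EIS lymphocytes, and SPAG9 at 130 and 131 CPM in myeloid cells.

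The other ciliary genes, taken from 6 pathway lists without the gate markers, also differed little between the ciliated cells of the libraries. Of 65 listed genes in the files 64 had at least 20 UMIs. None was 2-fold or more higher in EL, where 8.16% of all features were, and 1 was in EIS, where 5.22% were. Abundant features in general rarely reached 2-fold, as given above. The 1 gene was CCNO, a cyclin that starts the mass production of basal bodies, with 12 EL and 15 EIS UMIs, a ratio of 0.183 (0.0783 to 0.419), named after its value was seen. The median log2 ratio over the 64 was 0.03, against 0.09 over all features.

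By list, the median log2 ratio was -0.02 for 11 ciliogenesis regulators, 0.04 for 7 dynein preassembly genes, -0.01 for 11 other axonemal genes, 0.02 for 7 BBSome genes, 0.07 for 15 further transport genes and 0.30 for 13 transition zone genes. The transition zone is the gate at the base of the cilium, and 9 of its 13 genes were above a ratio of 1, beside the 7418 of 12769 features given above. B9D2 was at 163 against 119 CPM (1.37, 1.20 to 1.57) and TMEM216 at 159 against 123 CPM (1.29, 1.13 to 1.48), while RPGRIP1L had a ratio of 0.965 (0.862 to 1.08) whose interval held 1. Among the regulators, the transcription factors RFX2 and RFX3 were at 117 against 128 CPM (0.909, 0.794 to 1.04) and 106 against 128 CPM (0.829, 0.723 to 0.953). The tubulins of the axoneme list differed in direction, TUBB4B at 3477 against 4071 CPM (0.854, 0.834 to 0.875) and TUBA1A at 2876 against 2405 CPM (1.20, 1.16 to 1.23). MNS1, a protein inside the doublet, was at 442 against 336 CPM (1.32, 1.21 to 1.43).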

How the data were processed

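Single cells were profiled with 10x Genomics 3' chemistry in 1 EL and 1 EIS library. The authors deposited raw UMI counts per feature and barcode without normalization, per the file headers. Cell Ranger 2.1.1 is named in the submitters' processing notes and cellranger 6.1.0 in the matrix header, per the file headers; the build, the annotation and the handling of reads shared by close paralogs were not stated in these sources. Features without a symbol held 27.1% of EL and 23.2% of EIS UMIs.

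Barcodes with 500 UMIs and 300 genes were kept, and barcodes with the highest Scrublet scores were removed as doublets, 0.8% of barcodes for each 1000 in the library (scanpy 1.11.5). A gate needed 3 marker UMIs over 2 genes and 0.1% of UMIs for ciliated or 0.3% for other lists. Cells passing several lists were set aside from the classes but stayed in the clusters. Clusters (Leiden, resolution 1, 2000 variable genes, 30 components, 15 neighbours) were made without the 45 genes. UMIs of each class were added up within a library and divided by their total (CPM). Level intervals are exact Poisson, ratio intervals exact conditional binomial and shares Clopper-Pearson, all at 95%; a class at 0 UMIs was set to 3 counts for a bound. The script for ratios was tested on simulated data. TMM (edgeR 4.0.16) and DESeq2 1.42.0 factors served as alternatives only.

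The members and lists were chosen with earlier results of these data known. Genes named with values are, by rule, up to 6 per role with the most UMIs, the 8 largest and 8 smallest EL over EIS ratios at 100 UMIs or more, the 8 smallest ciliated over other epithelial ratios of EL at 50 UMIs or more, and up to 5 per pathway list; others are named where a count of 5 or fewer or a class is described, after their values were seen.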

Additional observations from a re-analysis of the deposited data

Results flagged for a closer look

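MORN3 differed in direction between classes: its EL over EIS ratio was 0.827 in ciliated cells. In other epithelial cells EL had 38 UMIs and EIS 0, and the exact interval of the ratio had a lower limit of 1.27. With EIS set to 3 counts, or 1.51 CPM, the ratio there was 1.64. MORN3 was not alone in this change of direction. RSPH4A had a ratio of 0.963 in ciliated and 3.24 in other epithelial cells, and ROPN1L 0.946 and 2.01. Their intervals in ciliated cells held 1. In other epithelial cells 34 of 38 genes, MORN3 among them, had a ratio above 1. With 1 library per group the difference between the classes was not tested.

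The EIS cells that passed the ciliated gate together with another gate enter no comparison of gated classes. These 427 cells had a summed level of the 45 genes of 2982 CPM, above the 535 CPM of EIS lymphocyte-gated cells and below the 13481 CPM of EIS ciliated cells, and 263 of them passed the stromal gate as the only other one.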

How the results depend on the processing

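No paired analysis was possible because each group has 1 library, and the planned promoter motif counts were not run because no promoter table was given. The share of ciliated cells depended most on its definition. In EL it was 28.1% at a marker share of 0.05%, 23.0% at 0.2%, 17.7% with 5 marker UMIs over 3 genes, 26.7% with 1000 UMIs and 500 genes per cell, 26.4% without doublet removal and 12.5% by cluster. In EIS it was 3.56% at 0.2%, 5.32% with the deeper cells, 4.60% without doublet removal and 3.14% by cluster. Chosen after seeing the data, a marker share of 0.5% gave 15.8% and 3.09%, and leaving out the marker ADGB gave 24.3% in EL. EL was above EIS under each of these. The count of genes 2-fold or more higher in EL in ciliated cells went from 0 to 1 with 5 marker UMIs (TPPP3), on thinned cells (CFAP206) and at a fold of 1.5 (TPPP3). The count higher in EIS went from 1 to 0 on thinned cells and at 100 UMIs, and to 2 without a count minimum and at a fold of 1.5. The median log2 ratio was -0.11 at a marker share of 0.05%, and within -0.01 to 0.12 under the other settings. On thinned cells IFT122 (-0.19) and IFT74 (-0.0496) reversed and a further 13 of 41 genes left their counting intervals, as 18 did at 0.05%. The causes were not tested. No gene of the 41 left its interval with TMM or DESeq2 factors, the total without genes over 1%, a marker share of 0.2% or 0.5%, or the filters of 1000 UMIs with 500 genes and of 200 genes; 2 did with 5 marker UMIs, 1 by cluster and 1 without doublet removal. In other classes, a minimum of 100 UMIs, which tests fewer genes, gave 0 genes higher in EL in lymphocytes, 0 in myeloid and 10 in stromal cells. TMM scaling, added after seeing the data, gave 1 higher in EL and 1 higher in EIS in myeloid cells and 4 higher in EL in stromal cells. No share of all features under TMM is given beside these counts. Depth limits the rare genes RSPH6A, CFAP206 and CFAP97D1 and all ratios in the 55 EL stromal and 75 EL myeloid cells.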
